A study of Homo sapiens with 6 samples.

Results

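The 10 genes described here carry glucose into the cell, through glycolysis and out again as lactate. They are the glucose transporter SLC2A1 (GLUT1), the hexokinases HK1 and HK2, the regulator PFKFB3, the phosphofructokinase PFKP, the phosphoglycerate mutase PGAM1, the enolase ENO1, the pyruvate kinase PKM, the lactate dehydrogenase LDHA and the lactate exporter SLC16A3 (MCT4). They were chosen by gene symbol, and all 10 were found, each in a single row, among the 60671 genes of the deposited table. The 6 RNA-seq libraries come from HaCaT, an immortalised keratinocyte cell line of human skin, here labelled as wild type. In the IFN-beta group (n = 3) the cells spent 24 h in serum-free high-glucose medium with the type I interferon IFN-beta at 160 ng/mL, and in the control group (CTL, n = 3) they spent it in that medium without interferon. Both groups had been grown in medium with serum before, so withdrawal of serum is shared by them. Whether replicates were separate cultures is not labelled, so p-values measure only how these libraries vary, and that variation may be technical.

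Glycolysis splits glucose into pyruvate in the cytosol and yields ATP without oxygen. Hexokinase traps glucose as glucose 6-phosphate, phosphofructokinase commits it to the path, and fructose 2,6-bisphosphate, made by enzymes such as PFKFB3, is the strongest known activator of that step. The lower part of the path yields ATP and pyruvate, which LDHA reduces to lactate, and lactate leaves through proton-coupled transporters. Keratinocytes make much lactate even in oxygen, and GLUT1 is their main glucose transporter. The hypoxia-inducible factors (HIF) and MYC are known activators of many of these genes.

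Libraries held between 25832158 and 30594527 reads, recovered from the steps of the deposited FPKM values (fragment counts scaled to gene length and library size), and reads are not independent molecules. The treatment was visible in the libraries, since the interferon-induced genes MX1, ISG15, IFIT1, OAS1 and IFI6 were higher by 4.56 to 7.45 on the log2 scale. All 10 keratinocyte markers listed averaged above 0.5 FPKM, with a summed level of 3199 to 3249 FPKM in IFN-beta and 3314 to 3625 FPKM in CTL libraries. Of these markers 3 were called higher and 4 lower, against 22.5% and 19.9% of all genes tested. KRT5 fell the most (-0.51), and their median log2 change was 0.04. Markers of other skin cells stood far lower. The 4 melanocyte markers summed to 1.44 to 1.87 FPKM in IFN-beta and 1.41 to 1.43 FPKM in CTL libraries (MLANA and TYR at 0), and the 6 fibroblast markers to 2.55 to 3.27 FPKM in IFN-beta and 1.73 to 2.47 FPKM in CTL libraries (DCN at 0). The 3 endothelial markers summed to 2.12 to 2.21 FPKM in IFN-beta and 0.696 to 0.964 FPKM in CTL libraries. Most of the fibroblast sum came from COL1A1 and most of the endothelial sum from CDH5. Both were called higher, COL1A1 by 0.48 (limma adjusted p = 0.0391) and CDH5 by 1.01 (limma adjusted p = 2.73e-04) on the log2 scale. PMEL, the highest melanocyte marker, did not pass (0.11, limma adjusted p = 0.511). The part of these markers in the results was not tested. In bulk RNA, fewer cells of a type and less RNA per cell cannot be told apart.

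With IFN-beta 5 of the 10 genes rose, namely SLC16A3, HK2, PGAM1, PFKP and SLC2A1, and 2 fell, namely ENO1 and LDHA, whose changes were 0.011 and 0.028 after quantile normalization. PFKFB3, HK1 and PKM did not pass the test. The genes that rose act at entry, phosphorylation, commitment, phosphoglycerate mutation and export, and those that fell at enolase and lactate dehydrogenase. These are calls on genes and not on whole steps. HK1 at phosphorylation and the phosphofructokinases PFKL and PFKM at commitment did not pass. The test was limma on log2(FPKM + 0.5) with Benjamini-Hochberg adjustment over the 15163 genes with a mean of at least 0.5 FPKM, at an adjusted p of 0.05. It called 42.4% of all genes tested, 22.5% higher and 19.9% lower, so 7 calls among 10 genes stand on a high background. Calls over all genes were 3419 higher and 3012 lower, against 4071 and 2373 when all libraries were set to an equal total, and 2748 and 3880 with quantile normalization. The median log2 change of the 10 genes was 0.16, and that of all genes tested 0.01. The IFN-beta and CTL values did not overlap in 8 of the 10 genes (5 higher and 3 lower), where 54% of all genes tested did not overlap, 28.6% higher and 25.4% lower.

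**Figure D1:**
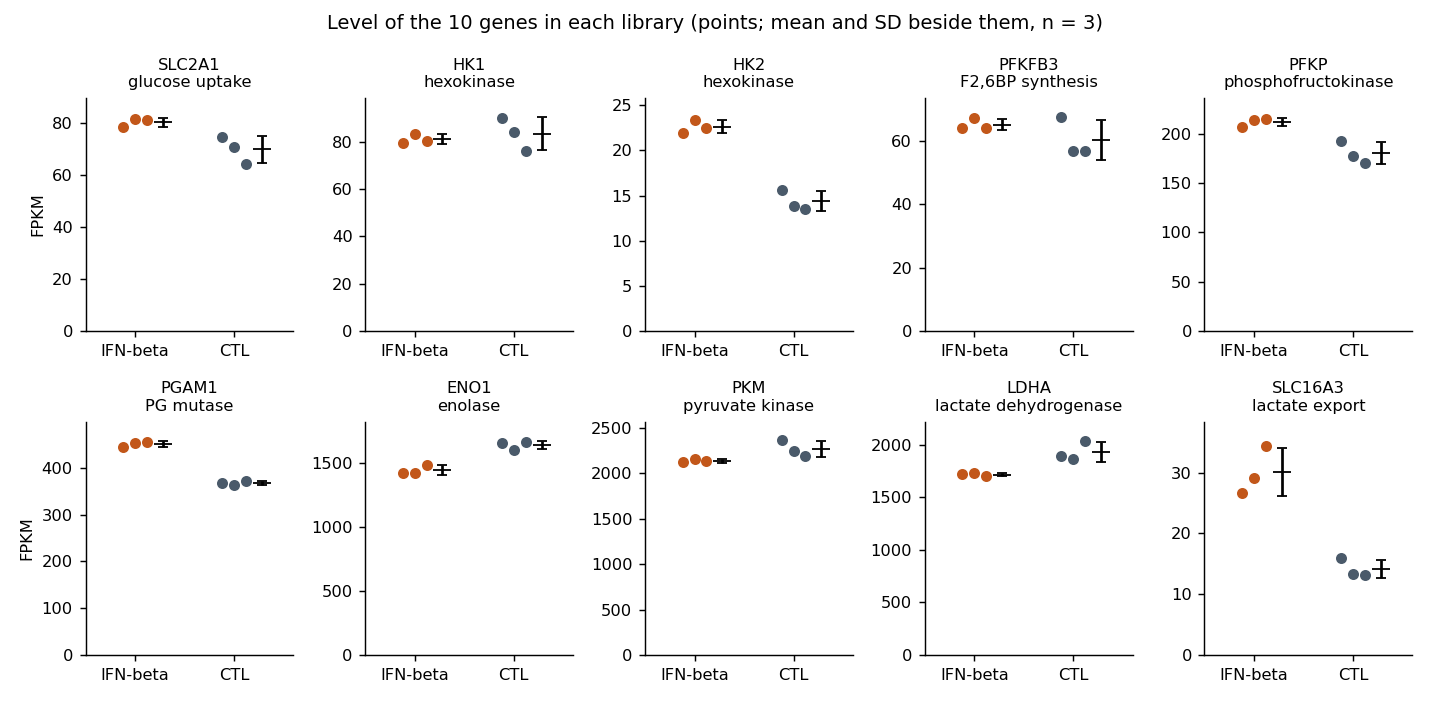
FPKM (y axis, from 0) of each of the 10 genes in the 3 IFN-beta and 3 CTL libraries, shown as points in the order of the replicate numbers, with mean and SD beside them. SLC16A3 stands at 26.6 to 34.5 FPKM in IFN-beta and 13.1 to 15.9 FPKM in CTL libraries, while HK1 and PFKFB3 overlap between the groups.

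SLC16A3 had the largest change of the 10 genes. SLC16A3 (ENSG00000141526), the proton-coupled carrier known for lactate export from strongly glycolytic cells, lies on chromosome 17 from 82228397 to 82261129 on the plus strand (GRCh38, inferred from the coordinates). It stood at 26.6, 29.2 and 34.5 FPKM in IFN-beta replicates 1 to 3, against 15.9, 13.4 and 13.1 FPKM in CTL replicates 1 to 3. Every IFN-beta library was above every CTL library, and replicate 3 was the highest of the treated ones. The mean was 30.1 ± 4.0 FPKM with IFN-beta and 14.1 ± 1.53 FPKM in CTL (SD, n = 3 each), a ratio of 2.13. The log2 change was 1.06 ± 0.102 (SE, limma adjusted p = 6.19e-05), above that of 97.3% of all genes tested. It is also the gene of the 10 with the fewest reads, 1039 to 1413 with IFN-beta and 454 to 630 in CTL, and 5.36% of its exon bases are shared with CSNK1D on the opposite strand.

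HK2 showed the second largest change. Hexokinase 2 is the inducible isoenzyme of insulin-sensitive tissues and many tumours, able to bind mitochondria. Its gene (ENSG00000159399) lies on chromosome 2 from 74834127 to 74893359 on the plus strand. HK2 stood at 21.97, 23.4 and 22.5 FPKM in IFN-beta libraries, against 15.6, 13.9 and 13.6 FPKM in CTL libraries. The groups were far apart relative to their spread, with means of 22.6 ± 0.719 FPKM with IFN-beta and 14.4 ± 1.11 FPKM in CTL (SD, n = 3 each). The log2 change was 0.64 ± 0.063 (SE, limma adjusted p = 7.18e-05), on 2341 to 2592 reads with IFN-beta and 1319 to 1741 reads in CTL.

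HK1 (ENSG00000156515), the constitutive hexokinase on chromosome 10 from 69269984 to 69401884 (plus strand), gave no call. It stood at 79.4, 83.4 and 80.5 FPKM in IFN-beta libraries, against 90.2, 84.0 and 76.1 FPKM in CTL libraries. The treated values lie inside the range of the controls. The log2 difference was -0.04 with a 95% interval of -0.17 to 0.10 (limma adjusted p = 0.641), and it changed sign with libraries set to an equal total (0.0080) and without CTL replicate 1 (0.020). HK1 was the more abundant hexokinase in every library, but HK2 made up 21.8% ± 0.113 of the summed FPKM of the pair with IFN-beta and 14.7% ± 0.471 in CTL (SD, n = 3 each). The size of this share depends on the gene lengths behind the FPKM, recovered as 3766 bases for HK2 and 1932 bases for HK1.

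Stretches of promoter are shown for SLC16A3 and HK2, which rose most, and for LDHA, which fell in FPKM though not after quantile normalization (0.028), since all hold the core of the hypoxia response element. They are 5′ to 3′ on the plus strand, from RefSeq (GRCh38.p14), and capitals mark ACGTG on either strand, which on the other strand reads CACGT. The SLC16A3 stretch (chr17:82228792-82229031) lies before 1 of 5 listed starts and the HK2 stretch (chr2:74834920-74835169) before 1 of 2, both without annotated exon bases, and the LDHA stretch (chr11:18394470-18394499) is a site of 30 bases. Each start was taken because it had the most ACGTG matches of its gene in the 250 bases before it. Both strands were counted, so each CACGTG gave 2 matches. For LDHA, 175 of these 250 bases are annotated exon bases, and the 30 bases were picked for their matches. Windows at the other SLC16A3 and LDHA starts held no ACGTG, and that at the other HK2 start held 2.
SLC16A3: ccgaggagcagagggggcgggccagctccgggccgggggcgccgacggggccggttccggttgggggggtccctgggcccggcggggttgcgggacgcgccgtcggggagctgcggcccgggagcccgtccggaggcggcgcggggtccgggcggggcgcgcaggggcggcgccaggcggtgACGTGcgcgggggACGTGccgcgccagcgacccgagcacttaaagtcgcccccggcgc
HK2: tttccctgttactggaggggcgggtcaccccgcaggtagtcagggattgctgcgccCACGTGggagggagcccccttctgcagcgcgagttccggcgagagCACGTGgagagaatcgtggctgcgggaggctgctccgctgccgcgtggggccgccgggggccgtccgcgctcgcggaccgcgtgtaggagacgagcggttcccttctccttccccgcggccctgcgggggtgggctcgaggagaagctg
LDHA: gactcaCACGTGggttcccgCACGTccgcc
Where capitals read CACGTG, in HK2 and LDHA, the letters are also the E-box known for MYC and MAX.

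At the uptake step the rise of SLC2A1 was small. SLC2A1 (ENSG00000117394) encodes the transporter GLUT1 and lies on chromosome 1 from 42925353 to 42958893 on the minus strand. It stood at 78.3, 81.5 and 81.1 FPKM in IFN-beta libraries, against 74.4, 70.9 and 64.1 FPKM in CTL libraries. All treated values were above all control values. Means were 80.3 ± 1.76 FPKM with IFN-beta and 69.8 ± 5.24 FPKM in CTL (SD, n = 3 each), a log2 change of 0.20 ± 0.055 (SE, limma adjusted p = 0.0166). The call ended without IFN-beta replicate 2 (limma adjusted p = 0.0583) or 3 (0.0528), without the filter on level (0.0519), in the eBayes fit without trend (0.0534) and after quantile normalization (0.0553).

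PFKP (ENSG00000067057), the platelet-type phosphofructokinase, lies on chromosome 10 from 3066333 to 3137718 on the plus strand. It stood at 207, 214 and 215 FPKM in IFN-beta libraries, against 193, 177 and 170.3 FPKM in CTL libraries. The groups did not overlap, and the 3 CTL values were more scattered than the IFN-beta ones. The log2 change was 0.23 ± 0.048 (SE, limma adjusted p = 0.0044). PFKP made up 70.4% ± 0.281 of the summed FPKM of the genes PFKP, PFKL and PFKM with IFN-beta and 66.3% ± 0.754 in CTL (SD, n = 3 each). This share too depends on the gene lengths behind the FPKM.

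PFKFB3 (ENSG00000170525), the isoform of the bifunctional enzyme with the highest kinase activity, lies on the same chromosome from 6144934 to 6254644 on the plus strand. It stood at 64.0, 67.0 and 63.9 FPKM in IFN-beta libraries, against 67.3, 56.7 and 56.6 FPKM in CTL libraries. CTL replicate 1 was above all treated libraries, while the other CTL libraries were below them. The log2 difference was 0.11 with a 95% interval of -0.04 to 0.27 (limma adjusted p = 0.202). Without CTL replicate 1 it was 0.20 and passed (limma adjusted p = 0.0062).

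PGAM1 (ENSG00000171314), which turns 3-phosphoglycerate into 2-phosphoglycerate, lies on chromosome 10 from 97426191 to 97433444 on the plus strand. It stood at 445, 453 and 457 FPKM in IFN-beta libraries, against 369, 364 and 371 FPKM in CTL libraries. It had the tightest CTL values of the 10 genes, with an SD of 1.06% of the mean, and the groups lie far apart. The log2 change was 0.29 ± 0.033 (SE, limma adjusted p = 1.50e-04). The table lists 13 pseudogenes named after PGAM1, and their reads came to at most 0.671% of those of PGAM1 in any library, though reads that fit several copies could have been lost or moved in the authors' counting.

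The next enzyme went the other way. ENO1 (ENSG00000074800), alpha-enolase, lies on chromosome 1 from 8861000 to 8879190 on the minus strand and makes phosphoenolpyruvate. It stood at 1419.6, 1418.9 and 1484 FPKM in IFN-beta libraries, against 1654, 1597.5 and 1659 FPKM in CTL libraries. All treated libraries were below all controls. ENO1 fell by 0.18 ± 0.040 on the log2 scale (SE, limma adjusted p = 0.0058), but was at 0.011 after quantile normalization (limma adjusted p = 0.791).

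LDHA (ENSG00000134333) encodes the muscle-type subunit of lactate dehydrogenase, which favours lactate, and lies on chromosome 11 from 18394560 to 18408425 on the plus strand. It stood at 1724, 1729 and 1704 FPKM in IFN-beta libraries, against 1898.5, 1866 and 2041 FPKM in CTL libraries. The treated libraries were close together and below all controls. LDHA fell by 0.17 ± 0.045 on the log2 scale (SE, limma adjusted p = 0.0152), but was at 0.028 after quantile normalization (limma adjusted p = 0.570). The call also ended without IFN-beta replicate 1 (limma adjusted p = 0.0519), 2 (0.0517) or 3 (0.0534) and without the filter on level (0.0872).

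PKM (ENSG00000067225), which makes pyruvate and gives both the M1 and the M2 isoform by alternative splicing, lies on chromosome 15 from 72199029 to 72231822 on the minus strand. The table gives a single level per gene, so the isoforms cannot be told apart. It stood at 2121, 2161 and 2134 FPKM in IFN-beta libraries, against 2367, 2247 and 2195 FPKM in CTL libraries. The groups did not overlap, yet the log2 difference of -0.085 did not pass (95% interval -0.18 to 0.01, limma adjusted p = 0.148). It passed without CTL replicate 3 (-0.11, limma adjusted p = 0.0425), and after quantile normalization it passed in the opposite direction (0.12, limma adjusted p = 0.0410).

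The ranks of these abundant genes bear on that normalization. PKM ranked between 21 and 22 of all 60671 genes by FPKM in IFN-beta libraries and between 23 and 28 in CTL libraries. LDHA ranked between 30 and 32 with IFN-beta and between 30 and 33 in CTL, and ENO1 between 40 and 42 with IFN-beta and between 41 and 43 in CTL. Quantile normalization gives the same value to the same rank in every library, so its values for these genes follow their ranks. ENO1 and LDHA were lower in deposited FPKM and nearly unmoved in rank.

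**Figure D2:**
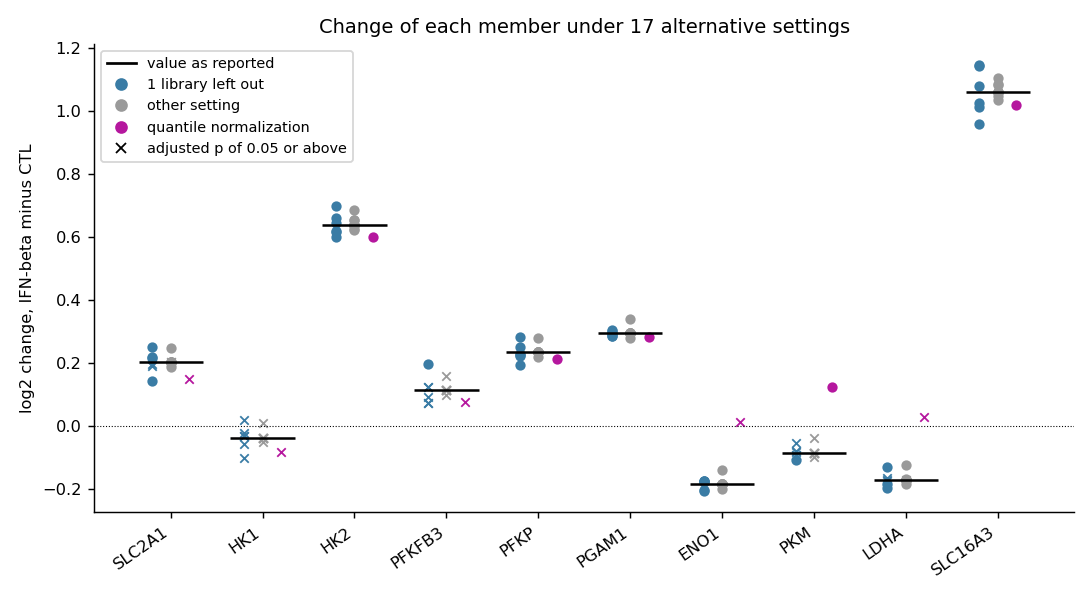
Log2 change (IFN-beta minus CTL, y axis) of each of the 10 genes as reported (black line) and under 17 other settings, with crosses where the adjusted p was 0.05 or above. SLC16A3 stays between 0.96 and 1.15 and HK2 between 0.60 and 0.70 and both pass throughout, whereas ENO1, LDHA and PKM move from below 0 to 0.011, 0.028 and 0.12 under quantile normalization.

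PKM, LDHA and ENO1 were the most abundant of the 10 genes in every library. In IFN-beta libraries the order per length was PKM (2139 ± 20.4 FPKM), LDHA (1719 ± 13.4), ENO1 (1440.8 ± 37.2), PGAM1 (451 ± 6.17), PFKP (212 ± 4.46), HK1 (81.1 ± 2.08), SLC2A1 (80.3 ± 1.76), PFKFB3 (65.0 ± 1.77), SLC16A3 (30.1 ± 4.0) and HK2 (22.6 ± 0.719). HK1 and SLC2A1 did not differ beyond their spread there. In CTL libraries the order was the same down to PFKFB3, and HK2 (14.4 ± 1.11 FPKM) and SLC16A3 (14.1 ± 1.53 FPKM) did not differ beyond their spread. The lengths behind the FPKM, recovered as 1066 bases for ENO1 to 3766 bases for HK2, are shorter than the exon bases of GENCODE release 29 (5276 for ENO1 and 6064 for HK2). With the latter as length, SLC16A3 comes last in both groups, at 4.48 with IFN-beta and 2.11 in CTL, and the order of the others is kept. Together the 10 genes took 0.780% ± 0.0062 of reads with IFN-beta and 0.823% ± 0.0170 in CTL (SD, n = 3 each). Among the CTL libraries, replicate 1 was the highest in 7 of the 10 genes and replicate 3 the lowest in 7, and the part of this in the results was not tested.

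Ratios between isoenzymes or partners within a library do not depend on a scaling by 1 factor per library, though quantile normalization can move them. The size of a ratio also depends on the gene lengths behind the FPKM. There were 6 such ratios, tested by two-sided exact permutation over the 6 libraries, where 3 against 3 cannot go below p = 0.1. HK2/HK1 was 0.277, 0.281 and 0.279 in IFN-beta libraries and 0.173, 0.165 and 0.178 in CTL libraries. The difference of log2 ratios was 0.70 ± 0.032 (SE, n = 3 each, exact permutation p = 0.1, adjusted over 6 ratios 0.15). The ratio was nearly the same within each group although HK1 itself varied between CTL libraries.

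PFKP/PFKL was 8.24, 8.602 and 7.96 in IFN-beta libraries and 6.68, 6.38 and 6.84 in CTL libraries. Its log2 difference was 0.32 ± 0.044 (SE, n = 3 each, exact permutation p = 0.1, adjusted 0.15). PFKL, the liver-type form, had a log2 difference of -0.08 and did not pass (limma adjusted p = 0.342).

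SLC16A3/SLC16A1 was 0.151, 0.164 and 0.197 in IFN-beta libraries and 0.138, 0.107 and 0.0975 in CTL libraries. Its log2 difference was 0.59 ± 0.186 (SE, n = 3 each, exact permutation p = 0.1, adjusted 0.15), and CTL replicate 1 came close to the lowest treated library. SLC16A1 (MCT1), the widespread lactate carrier, was the more abundant of the pair and rose as well, to 176 ± 1.29 FPKM with IFN-beta, against 125 ± 9.55 FPKM in CTL (log2 change 0.50, limma adjusted p = 1.17e-04). The shared chaperone of both carriers, BSG (basigin), stood at 431 ± 2.67 FPKM with IFN-beta and 421 ± 23.7 FPKM in CTL and did not pass (log2 difference 0.03, limma adjusted p = 0.579), with -0.0084 without CTL replicate 3.

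SLC2A1/SLC2A3 moved downward, at 9.65, 8.07 and 10.7 in IFN-beta libraries and 22.9, 27.0 and 18.6 in CTL libraries. Its log2 difference was -1.26 ± 0.196 (SE, n = 3 each, exact permutation p = 0.1, adjusted 0.15). SLC2A3 (GLUT3), a transporter with high affinity best known from neurons, rose to 8.61 ± 1.32 FPKM with IFN-beta, against 3.11 ± 0.432 FPKM in CTL (log2 change 1.33, limma adjusted p = 5.48e-05). SLC2A1 was the more abundant in every library. SLC2A14, a near-identical copy of SLC2A3, was listed at 0.0244 FPKM at most, and reads that fit both could have been split in the counting, so the level of SLC2A3 is uncertain.

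The remaining ratios overlapped between the groups. LDHA/LDHB was 1695, 1135 and 1287 in IFN-beta libraries and 1173, 913 and 914 in CTL libraries. It had a log2 difference of 0.45 ± 0.209 (SE, n = 3 each, exact permutation p = 0.2, adjusted 0.24) and PFKFB3/TIGAR 0.23 ± 0.139 (exact permutation p = 0.3, adjusted 0.3). LDHB, the heart-type subunit, stood at 1.29 ± 0.255 FPKM with IFN-beta and 1.97 ± 0.315 FPKM in CTL (SD, n = 3 each). TIGAR, a phosphatase that opposes PFKFB3, stood at 1.59 ± 0.117 FPKM with IFN-beta and 1.72 ± 0.0895 FPKM in CTL (SD, n = 3 each). In GENCODE release 29, 33.4% of the exon bases of LDHB and 42.6% of those of TIGAR are shared with another gene on the same strand, so these levels and ratios are uncertain. Between neighbouring steps, in pairs chosen after the values were seen and given without a test, PGAM1/ENO1 was 0.308 to 0.319 in IFN-beta and 0.223 to 0.228 in CTL libraries. SLC16A3/LDHA was 0.0154 to 0.0202 in IFN-beta and 0.00642 to 0.00837 in CTL libraries.

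**Figure D3:**
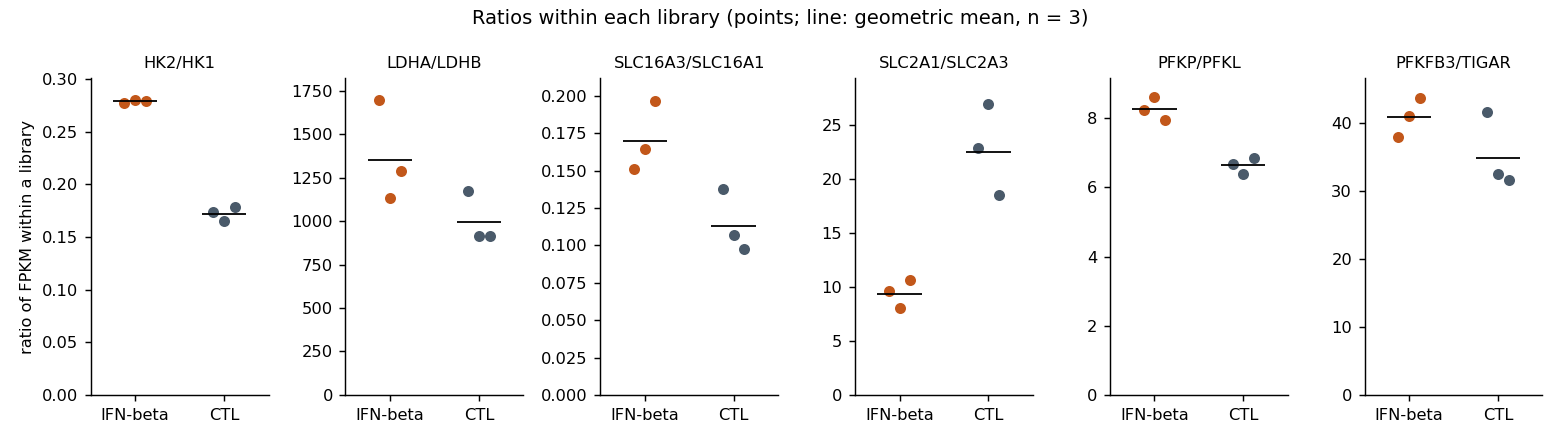
Ratio of the FPKM of gene pairs within each library (y axes from 0, points; the line is the geometric mean, n = 3 each) in IFN-beta and CTL libraries. HK2/HK1, SLC16A3/SLC16A1 and PFKP/PFKL are higher and SLC2A1/SLC2A3 lower in all IFN-beta libraries, while LDHA/LDHB and PFKFB3/TIGAR overlap.

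The rest of the glycolytic enzymes moved in both directions. Of 21 listed, 12 were tested, 1 rose and 3 fell, against 22.5% and 19.9% of all genes, with a median log2 change of -0.05. ADPGK, an ADP-dependent glucokinase, rose (log2 change 0.37, limma adjusted p = 7.85e-05). BPGM, which makes 2,3-bisphosphoglycerate, fell by 0.43 on the log2 scale (limma adjusted p = 0.0013). GAPDH, at 2355 ± 34.7 FPKM with IFN-beta and 2665 ± 53.1 FPKM in CTL, fell by 0.18 (limma adjusted p = 0.0071) but was at 0.064 after quantile normalization, and without the filter on level the call ended (limma adjusted p = 0.0701). PGK1 fell by 0.10 (limma adjusted p = 0.0385), a call that ended in 9 of the 17 other settings, among them without IFN-beta replicate 1 (limma adjusted p = 0.104), 2 (0.103) or 3 (0.113) and without CTL replicate 1 (0.0598) or 2 (0.0652). GPI did not pass (-0.06, limma adjusted p = 0.397). ALDOA is not described, since 42.3% of its exon bases are shared with another gene on the same strand.

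Of 14 other glucose transporters listed, 8 were tested, 4 rose and none fell, against 22.5% and 19.9% of all genes. Their median log2 change was 0.24, and it ran from 0.068 without the filter on level to 0.37 at a minimum of 2 FPKM. SLC2A8 did not pass (-0.16, limma adjusted p = 0.131), though its IFN-beta values were all below its CTL values. Beside SLC2A3 those that rose were SLC2A12 (1.17), SLC2A6 (0.43) and SLC2A9 (0.31), the last better known as a urate carrier, and all 4 stood below 12 FPKM. SLC2A12 shares 38.9% of its exon bases with TBPL1 on the opposite strand, and strand use in the counting is not known, so its level is uncertain. Among 5 tested genes of gluconeogenic bypass and of fructose bisphosphate control, FBP1 (0.35) and PCK2 (0.26), which makes phosphoenolpyruvate in mitochondria, rose and PFKFB2 fell by 0.17, while PFKFB4 (0.40, limma adjusted p = 0.116) did not pass. The call of PCK2 ended without IFN-beta replicate 1 (limma adjusted p = 0.0738), 2 (0.0862) or 3 (0.0742). The PFKFB4 difference passed without CTL replicate 1 (0.60, limma adjusted p = 0.0141), as did that of PFKFB3. Among 5 tested lactate genes outside the 10, SLC16A1 rose and LDHB and the carrier chaperone EMB fell, by 0.47 and 0.15. The call of EMB ended without IFN-beta replicate 1 (limma adjusted p = 0.0554) or 3 (0.0567) and without CTL replicate 2 (0.053). The call of LDHB ended without IFN-beta replicate 1 (limma adjusted p = 0.117) or 3 (0.0717) and without CTL replicate 2 (0.101) or 3 (0.106).

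**Figure D4:**
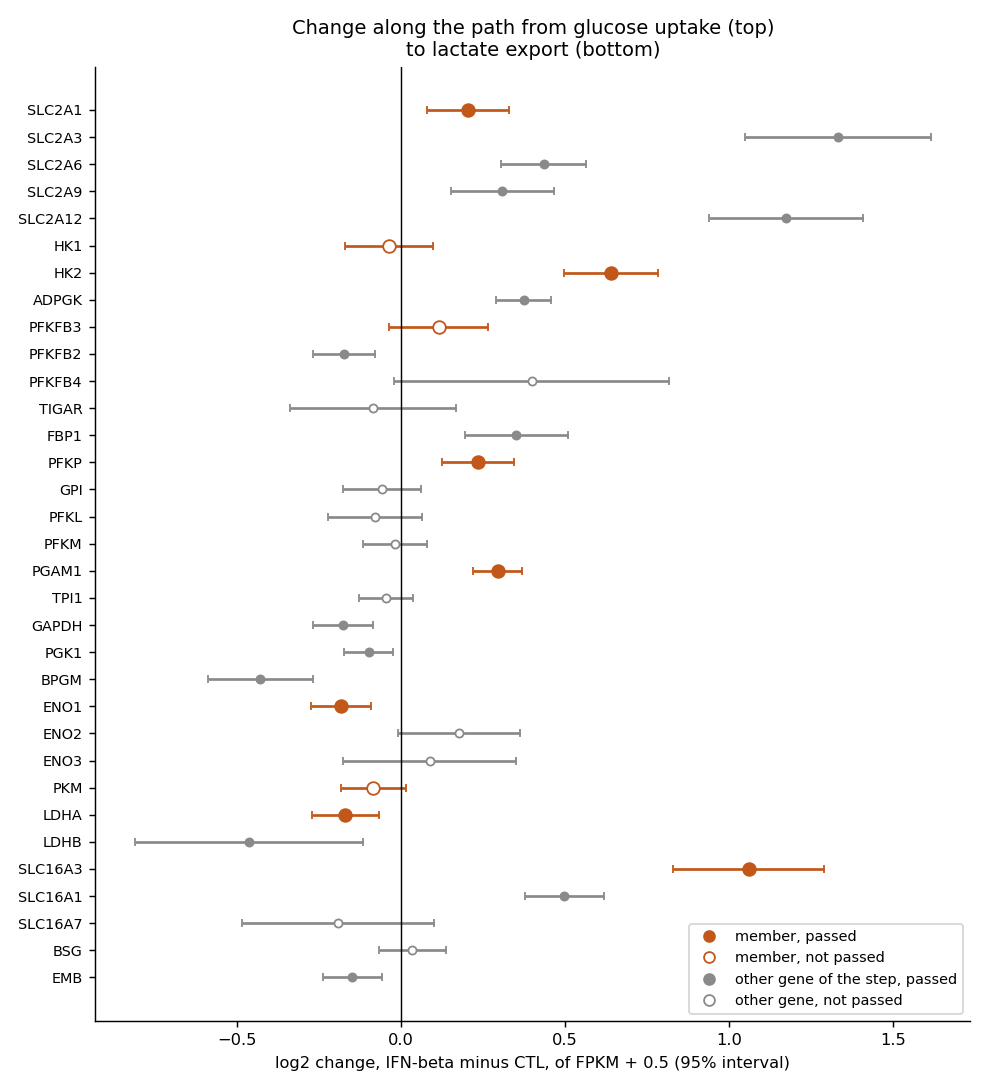
Log2 change with its 95% interval (IFN-beta minus CTL, x axis) of the 10 genes (large points) and selected other genes of the path (small grey points). They run from glucose uptake at the top to lactate export at the bottom, filled where the limma test passed. Of 8 other glucose transporters tested, only the 4 that rose are drawn. Among the genes drawn the largest changes are those of SLC2A3 (1.33), SLC2A12 (1.17) and SLC16A3 (1.06). SLC2A1 is at 0.20, and beside SLC16A3 stand BSG at 0.03, EMB at -0.15 and SLC16A7 at -0.19. ENO1 (-0.18) and LDHA (-0.17) are below 0, though not after quantile normalization.

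Genes downstream of pyruvate and in side branches are set beside the same background, 22.5% of all genes called higher and 19.9% lower. Of 17 tested citric acid cycle genes 2 rose and 10 fell, with a median of -0.14. SUCLG1 (-0.42), SUCLG2 (-0.34) and SDHD (-0.29) were lower and OGDH (0.32) higher. Among 14 tested genes of pyruvate entry 4 rose and 5 fell, with PDK4, a kinase that shuts pyruvate dehydrogenase, at 0.61, the opposing phosphatase PDP1 at 0.39, the mitochondrial pyruvate carrier MPC2 at -0.44 and the dehydrogenase subunit DLD at -0.34. Of 8 tested genes of the pentose phosphate path, the branch that yields NADPH, none rose and 2 fell, namely H6PD (-0.55) and TKT (-0.29). The share that fell is near the 19.9% of all genes, while none rose against 22.5% of all genes. Of 19 tested genes in glycogen, hexosamine, serine and polyol branches 5 rose and 7 fell, with a median of -0.10.

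Known regulators and targets were read from the same fit. HIF1A rose slightly (0.17, limma adjusted p = 0.0116), a call that ended without IFN-beta replicate 1 (0.0512) and after quantile normalization (0.0612), and its DNA-binding partner ARNT fell by 0.45 (limma adjusted p = 6.32e-04). EPAS1 did not pass (0.13, limma adjusted p = 0.141). Of 18 tested HIF targets outside glycolysis 10 rose and 1 fell, with a median of 0.31, against 22.5% and 19.9% of all genes called higher and lower. ANGPTL4 (1.42), CA12 (1.27), VEGFA (1.12) and BNIP3 (0.82) led them, and DDIT4, named after its value was seen, had a change of -0.48. ANGPTL4 and CA12 were low, with CTL means of 2.76 and 1.55 FPKM. NDRG1 (0.06, limma adjusted p = 0.82) and BNIP3L (-0.13, limma adjusted p = 0.173) were among the 7 that did not pass. Of 9 tested glucose and growth regulators 6 rose, against the same 22.5%. TXNIP, an arrestin-like protein that drives GLUT1 and GLUT4 off the cell surface and is induced by glucose, rose to 59.6 ± 6.21 FPKM with IFN-beta, against 16.8 ± 0.751 FPKM in CTL (log2 change 1.79, limma adjusted p = 2.22e-07). Its paralog ARRDC4 rose by 0.54. MYC rose to 203 ± 13.1 FPKM with IFN-beta, against 112 ± 7.41 FPKM in CTL (log2 change 0.85, limma adjusted p = 9.59e-06), and its partner MAX by 0.44.

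**Figure D5:**
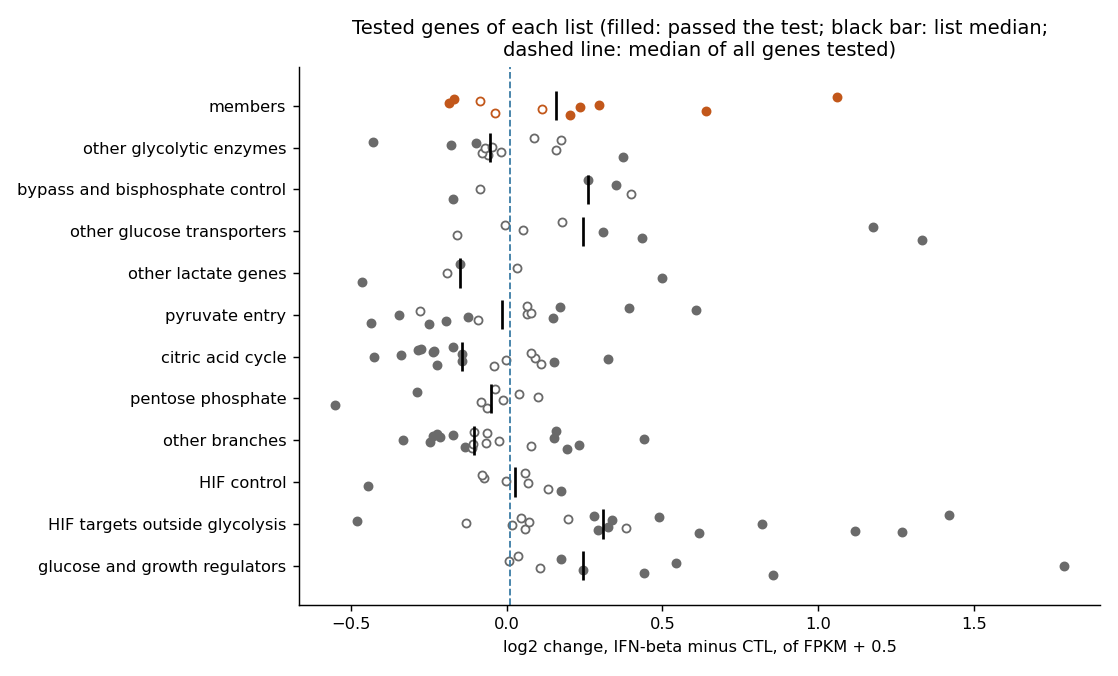
Log2 change (IFN-beta minus CTL, x axis) of every tested gene of the 10 and of the other pathway lists, filled where the limma test passed, with list medians as black bars. The 10 genes have a median of 0.16, HIF targets outside glycolysis 0.31 and citric acid cycle genes -0.14, beside 0.01 for all genes tested (dashed line).

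Motifs were counted over all listed starts, as a description without a test. RefSeq lists 26 starts for the 10 genes, with windows of 250 bases before to 50 after each. ACGTG, searched on both strands, was in 6 of these 26 windows, against 21.4% of 35116 windows of that length, and these belong to HK2, LDHA, PFKFB3, PFKP and SLC16A3. With GCGTG counted too, 16 of 26 windows held the core, against 48.4% of all. The E-box CACGTG, which contains ACGTG, was in 3 of 26 windows, of HK2, LDHA and PFKFB3, against 7.26% of all windows. By gene, 5 of the 10 held ACGTG, against 24.9% of 27305 genes, and 9 held it or GCGTG, against 52.4%. The E-box was in 3 of the 10, against 8.77% of genes. A gene with more listed starts has more chances to hold a match. The interferon-stimulated response element, searched on both strands as GAAA, any 2 bases and GAAA, was in none of the 26 windows, against 3.57% of all, and the STAT motif TTCNNNGAA was in 1, of HK1, against 7.66%. The table does not show which start was used, and a match is no evidence of binding.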

How the data were processed

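The authors deposited FPKM values for 60671 genes in 6 HaCaT libraries (3 with IFN-beta, 3 CTL). The labels' protocols list CLC Genomics Workbench 11.0.1 without its step, and the submitters' processing notes list mouse builds (GRCm38, mm10), although all 60671 identifiers are human. Of the 58453 identifiers also in GENCODE release 29 (GRCh38), 76.83% have the same coordinates, so the build is inferred. Not given in the sources used here: aligner, counter, strand use. The protocols name both TRIzol and an RNeasy kit for the RNA. Whole reads were recovered from the FPKM for 100% of 30507 genes above 0 (tolerance 0.01 reads), and lengths with them. The shortest length that gave whole reads in every library was taken, so genes with few reads can match at a wrong length. Intervals cover these libraries only.

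Tests used limma 3.58.1 in R 4.3.3 (trended eBayes, two-sided) on log2(FPKM + 0.5), which understates changes of low genes, and were checked on simulated data. The 10 genes and all lists were chosen with earlier results of these data known. Outside the 10, named are genes in a ratio, up to 4 called genes of a list by size of change and up to 2 others by level, not all of which are printed. Alternatives were pseudocounts of 0.1 and 1, no filter or a minimum of 2 FPKM, 3 rescalings, 2 other eBayes fits, the replicate number as a block, limma voom on recovered reads and each library left out. Python 3.11.15 made tables and figures. One further marker list is not reported here.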

Additional observations from a re-analysis of the deposited data

How the results depend on the processing

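Of 170 values of the 10 genes under 17 other settings, 154 kept direction and side of the threshold. The count of genes called ran from 5 to 8 of the 10, 4 to 6 higher and 1 to 3 lower when single libraries were left out (5166 to 6162 of all genes, against 6431, with 2732 to 3350 higher and 2370 to 3002 lower). Lower calls among the 10 numbered 1 without the filter on level and 0 after quantile normalization. Over all genes the lower calls were 2412 and 3880 in these settings, against 3012 as reported. That normalization turned ENO1 to 0.011, LDHA to 0.028, PKM to 0.12 and GAPDH to 0.064 on the log2 scale, as that method assigns values by rank, and moved the LDHA/LDHB difference to 0.81. HK1 reached 0.0080 with libraries set to an equal total. With single libraries left out HK1 lay between -0.10 and 0.020 and BSG between -0.0084 and 0.073. The cause was not tested. Left-out libraries moved the log2 ratio differences over 0.67 to 0.72 for HK2/HK1, 0.28 to 0.57 for LDHA/LDHB, 0.48 to 0.73 for SLC16A3/SLC16A1, -1.40 to -1.13 for SLC2A1/SLC2A3, 0.29 to 0.34 for PFKP/PFKL and 0.15 to 0.35 for PFKFB3/TIGAR. Same-numbered libraries did not deviate together (r between -0.098 and -0.052, and 0 of 3 IFN-beta libraries were closest to their own number). Whether they were prepared in pairs cannot be told from this, since a pairing with little effect would look the same. With the replicate block 7 of the 10 genes passed and 5817 of all genes. LDHB had 25 to 50 reads a library, so counting limits it more than any of the 10 genes. The LDHB change has no value at a minimum of 2 FPKM.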
